A study of Mus musculus with 16 samples.

Results

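The regions described here were the RNA polymerase II (Pol2) peaks that lay near gene starts but carried no called peak of H3K27ac, the acetylation of lysine 27 of histone H3. They were chosen by 2 readouts of the same tumor model. Whether both readouts came from the same tumors is not stated. A Pol2 peak was kept when it overlapped the window within 3 kb of any transcription start site (TSS) of the GENCODE vM21 annotation and shared no base with any H3K27ac peak. This rule selected 2441 of all 20375 Pol2 peaks, or 16.7% of the 14655 Pol2 peaks at promoters. The other 12214 promoter peaks, which shared at least 1 base with H3K27ac, are called acetylated below, and the 3157 Pol2 peaks that lay outside every promoter window and shared no base with H3K27ac served as a further group for comparison. The lack of H3K27ac means that no peak was called there, so a weak mark and an absent mark cannot be told apart.

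The peaks came from chromatin immunoprecipitation followed by sequencing (ChIP-seq) of mouse clear cell sarcoma (mCCS), a model of a soft tissue cancer driven by the fusion oncogene EWSR1::ATF1. All tumors carried human EWSR1::ATF1 with a V5 peptide tag in the Rosa26 locus, whose promoter expressed it after a loxP-flanked stop was removed by hindlimb injection of TATCre, a Cre recombinase that enters nuclei, on a mixed 129/SvJ and C57Bl/6 background. The series held 16 tumor samples, with 4 each for V5, RNAPOL2, H3K27ac and input, all labelled with the fusion genotype, so nothing here compares tumors with and without it. Each antibody was represented by 1 list of peaks with a whole-number score, and the lists hold no value per tumor and no read depth. Peaks and not tumors were therefore counted, neighboring peaks are not independent, and every 95% interval covers counting error only. In whole tumors, a mark present in few cells cannot be told apart from a weak mark in many.

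Pol2 is recruited to promoters, pauses shortly after the start, and then travels through the gene and past its 3′ end until it terminates, so that antibodies against its phosphorylated form can find it at starts, in gene bodies and beyond gene ends. H3K27ac is placed by the acetyltransferases p300 and CBP on nucleosomes beside active promoters and enhancers. Most promoters of widely expressed genes lie in CpG islands, stretches that are rich in GC and keep their CpG dinucleotides, whereas CpG is depleted in the rest of the mammalian genome. ATF1, which supplies the DNA-binding domain of the fusion, recognizes the cAMP response element TGACGTCA.

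Both kinds of sequence occurred among the 2441 regions, and 5 stretches of 200 bp are printed to show the contrast. Each is the stretch nearest to the middle of its peak that overlapped no annotated exon, written 5′ to 3′ on the strand of the named gene in mm10, with every CG dinucleotide in capitals. The first 3 came from peaks over a TSS with a CpG-rich middle. They are Plagl1 (chr10:13091025-13091224, plus strand), Cbwd1 (chr19:24961611-24961810, minus strand) and Mest (chr6:30737850-30738049, plus strand). The last 2 came from peaks that ran past the end of a gene, Xbp1 (chr11:5526770-5526969, plus strand) and Hnrnph1 (chr11:50387020-50387219, plus strand).
Plagl1: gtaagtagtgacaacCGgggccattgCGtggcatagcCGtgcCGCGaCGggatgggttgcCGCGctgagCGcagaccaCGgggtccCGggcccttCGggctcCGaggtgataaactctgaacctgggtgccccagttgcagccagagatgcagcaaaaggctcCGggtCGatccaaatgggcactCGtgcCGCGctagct
Cbwd1: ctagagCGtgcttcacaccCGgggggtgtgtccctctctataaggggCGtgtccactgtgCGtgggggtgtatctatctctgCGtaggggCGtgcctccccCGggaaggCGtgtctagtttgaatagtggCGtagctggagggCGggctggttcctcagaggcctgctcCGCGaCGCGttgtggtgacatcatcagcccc
Mest: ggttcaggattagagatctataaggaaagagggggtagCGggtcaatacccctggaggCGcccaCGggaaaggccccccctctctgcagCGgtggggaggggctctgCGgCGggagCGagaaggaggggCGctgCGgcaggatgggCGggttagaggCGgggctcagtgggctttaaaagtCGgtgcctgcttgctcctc
Xbp1: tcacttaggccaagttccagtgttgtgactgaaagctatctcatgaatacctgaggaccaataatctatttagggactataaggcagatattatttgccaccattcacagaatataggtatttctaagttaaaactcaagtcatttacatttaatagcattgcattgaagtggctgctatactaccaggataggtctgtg
Hnrnph1: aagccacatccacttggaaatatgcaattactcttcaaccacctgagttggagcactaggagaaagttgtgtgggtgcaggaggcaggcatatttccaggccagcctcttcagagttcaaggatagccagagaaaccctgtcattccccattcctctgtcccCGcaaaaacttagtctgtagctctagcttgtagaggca
The Plagl1 stretch held 18 CG dinucleotides, Cbwd1 held 14 and Mest held 12. Hnrnph1 held 1 and Xbp1 held 0. Bases 185 to 192 of the Cbwd1 stretch read TGACATCA, a variant of the cAMP response element that lies at chr19:24961619-24961626.

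The regions carried weak Pol2 signal. Their median score was 63 (95% interval 63 to 63), against 731.5 (715 to 753) for acetylated promoter peaks and 54 (54 to 54) for distal peaks without H3K27ac. When a region was paired with every acetylated promoter peak, it had the higher score in 6.45% of pairs (95% DeLong interval 6.03 to 6.87), and against distal peaks without H3K27ac it had the higher score in 58.9% of pairs (57.4 to 60.4). A score of at most 100 was found for 74.6% of the regions and for 8.02% of the acetylated promoter peaks. Scores above 500 were found at 26 regions and at 7612 acetylated promoter peaks. The scale of the score was not stated in the sources used here, and scores were compared only within a list, never between lists.

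**Figure D1:**
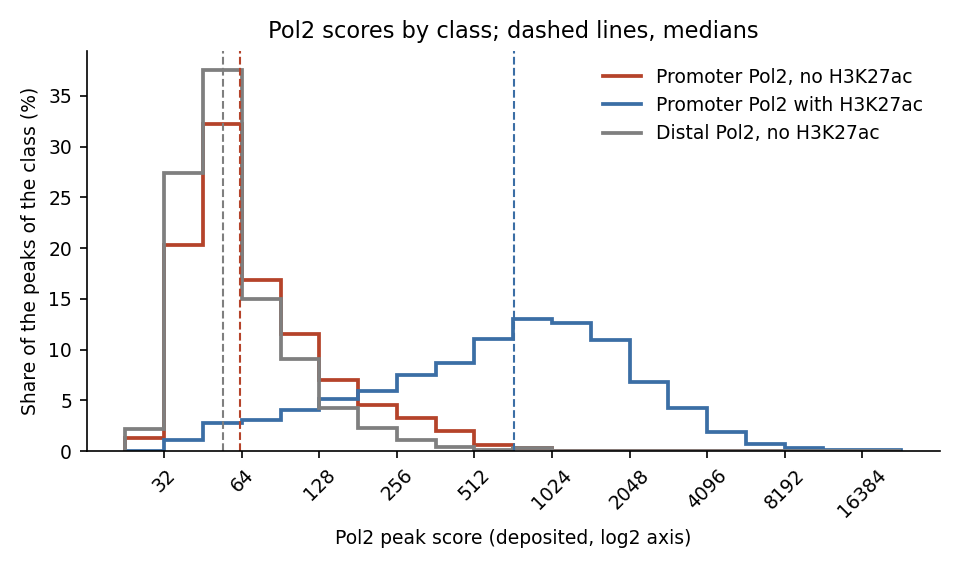
The x axis is the deposited Pol2 score on a log2 axis and the y axis is the share of the peaks of each class in percent. Lines show promoter peaks without H3K27ac, acetylated promoter peaks and distal peaks without H3K27ac, and dashed lines mark their medians of 63, 731.5 and 54; the first and last classes overlap almost wholly at low scores.

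The share of promoter Pol2 peaks without H3K27ac fell steeply with the score. This share is a description, since H3K27ac chose the regions. Among the weakest decile of the promoter peaks (scores 25 to 61) 76.3% had no H3K27ac (Wilson 95% interval 74.1 to 78.4), in the next decile 51.3% had none (48.7 to 53.8) and in the one after that 24.6% (22.4 to 26.8). Among the promoter peaks above the median score of 543, only 20 had none. The strongest decile (scores 2228 to 23501) held 1 such peak, a region over Gm42814, a processed pseudogene.

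**Figure D2:**
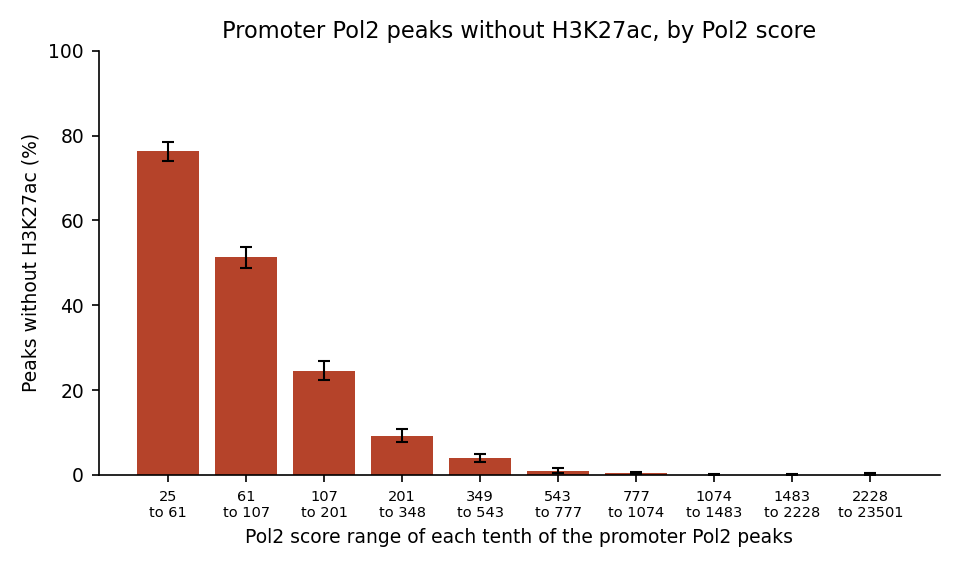
Bars give the share (percent, y axis) of promoter Pol2 peaks without H3K27ac in each decile of the promoter Pol2 peaks by score (x axis, score range), and error bars are Wilson 95% intervals. The share falls from 76.3% in the weakest decile to 0.0682% in the strongest.

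Most regions lay near a TSS without covering it. A TSS lay inside 783 regions, or 32.1% (30.3 to 34.0), where the share over all promoter Pol2 peaks was 80.0%, and inside 89.6% (89.0 to 90.1) of acetylated promoter peaks. The difference was -57.5 percentage points (Newcombe 95% interval -59.4 to -55.6). The rule used both TSS position and H3K27ac, so the rule itself bears on this difference. A TSS of a protein-coding gene lay inside 611 regions (25.03%), against 75.7% of all promoter Pol2 peaks and 85.8% of acetylated ones. Of the 1658 regions with no TSS inside, 1083 lay downstream of the nearest TSS and 575 upstream. This split was counted for the regions only, so it cannot be called particular to them. Only noncoding TSSs lay within 3 kb of 468 regions, or 19.2% (17.7 to 20.8), where the share over all promoter Pol2 peaks was 7.75% and that of acetylated promoter peaks 5.47%, a difference of 13.7 points (12.1 to 15.4). The difference in noncoding TSSs was smaller among weak peaks, at 2.98 points (0.427 to 5.48) within the lowest quartile of the scores.

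The regions were found toward the ends of genes rather than their starts. A 3′ end of a protein-coding gene lay within 3 kb of 1400 regions, or 57.4% (55.4 to 59.3), where the share over all promoter Pol2 peaks was 25.5%. Acetylated promoter peaks reached 19.1% (18.4 to 19.8), a difference of 38.3 points (36.2 to 40.3), and distal peaks without H3K27ac 47.1% (45.4 to 48.8), a difference of 10.3 points (7.62 to 12.9). A coding 3′ end lay inside 547 regions (22.4%, against 5.53% of acetylated promoter peaks and 11.4% of distal peaks). Of the 2050 regions that overlapped a coding gene, 50.7% had their middle in the last 25% of that gene and 8.24% in the first 25%, whereas 62.6% of the 11532 acetylated peaks that overlapped a coding gene had theirs in the first 25%. A further 11.5% of the regions and 18.6% of the acetylated peaks had their middle outside the gene they overlapped.

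**Figure D3:**
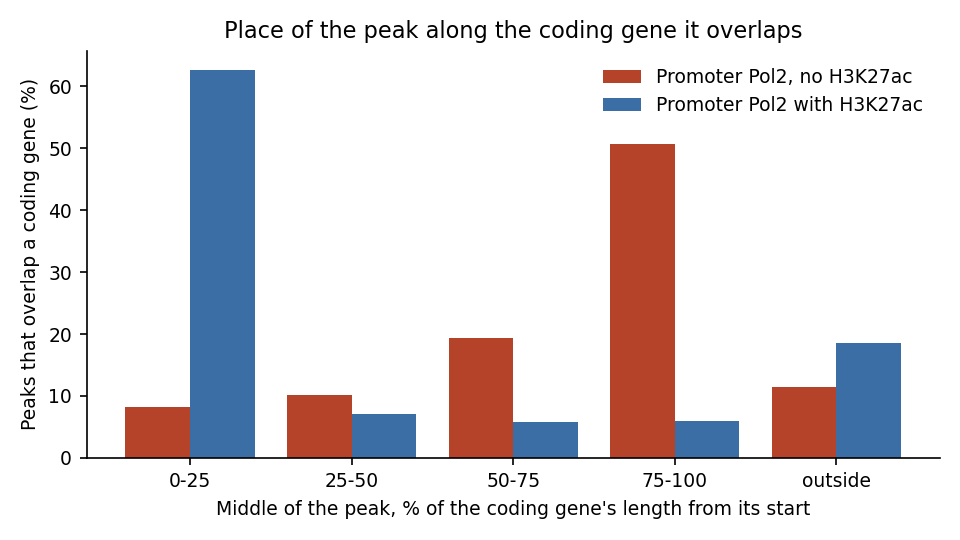
Bars give the share (percent, y axis) of the peaks overlapping a coding gene whose middle lay in each 25% of the gene's length from its start, or outside the gene (x axis), for promoter peaks without H3K27ac (2050) and acetylated promoter peaks (11532). The last 25% holds 50.7% of the former and 5.92% of the latter.

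For 1733 regions (71.0%, 69.2 to 72.8) the coding gene that they overlapped also had an acetylated Pol2 peak over one of its TSSs. This share was below the 88.6% of all promoter Pol2 peaks and the 92.1% of acetylated peaks, many of which are themselves such a peak, and 2.99 points (0.553 to 5.40) above the 68.0% of distal peaks without H3K27ac. The distance to the nearest H3K27ac peak was 6911 bp in the median (6511 to 7451), at most 1000 bp for 9.67% of the regions and more than 50000 bp for 4.79%. H3K27ac lay elsewhere in the promoter window of a TSS near the region for 781 regions (32%). For all promoter Pol2 peaks, H3K27ac anywhere in such a window was found for 88.5%. That share also counts the H3K27ac that acetylated peaks overlap, so the rule itself bears on the contrast. Together the regions fell into 1400 coding genes, of which 345 held at least 2 regions. Regions that share a gene are not independent of each other.

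The bases under the regions differed from those of acetylated promoters. The middle 300 bp of a peak was called CpG-rich when its GC content was at least 50% and its ratio of observed to expected CpG at least 0.6. This held for 152 regions, or 6.23% (5.34 to 7.26), where the share over all promoter Pol2 peaks was 61.4%, for 72.4% (71.6 to 73.2) of acetylated promoter peaks, and for 1.77% (1.37 to 2.30) of distal peaks without H3K27ac. The difference from acetylated peaks was -66.1 points (-67.3 to -64.8). The median ratio of observed to expected CpG was 0.210 in the regions (0.202 to 0.219), 0.817 in acetylated promoter peaks and 0.193 in distal peaks. The median GC contents were 50%, 65.3% and 48% in the same order. More than 50% of the bases were masked as repeats in 4.88% of the regions, in 0.311% of acetylated promoter peaks and in 1.07% of all promoter Pol2 peaks. Distal peaks without H3K27ac had more, at 8.65% (a difference of -3.77 points, -5.07 to -2.46).

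Short motifs were counted in the middle 300 bp on both strands, as letters only. GGGCGG, the core of the GC box, was present in 11.8% of the regions, 62.9% of acetylated promoter peaks and 54.3% of all promoter Pol2 peaks. CCGGAAG, a sequence bound by ETS factors, was present in 2.29%, 15.8% and 13.5%. The TATA box (TATAAA) was present in 13.4%, 3.95% and 5.53%, and CCAAT in 33.2%, 28.5% and 29.3%. The AP1 sequence TGAGTCA was present in 4.71%, 3.18% and 3.43%. Each of these differences between the regions and acetylated peaks had a 95% interval that excluded 0. Against distal peaks without H3K27ac the intervals for the TATA box, for CCAAT and for the AP1 sequence included 0 (for the TATA box -0.310 points, -2.11 to 1.51). Base composition, which differed between the classes as given above, was not taken into account in these counts.

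Few of these regions were overlapped by the V5 list, which held 10665 peaks. That is fewer binding sites than the study counts, so the lack of a V5 peak means only that none is in this list. A V5 peak overlapped 13 of the 2441, or 0.533% (0.312 to 0.909), where the share over all promoter Pol2 peaks was 22.0% and that of acetylated promoter peaks 26.3% (25.6 to 27.1). The difference was -25.8 points (-26.6 to -24.95). Distal peaks without H3K27ac had a share of 0.792% (0.537 to 1.17), and the interval of that difference included 0 (-0.694 to 0.195 points). The V5 share of acetylated peaks was 10.5% in the narrowest quartile of peak width and 47.3% in the widest. For the regions it was 0.979% and 0.522%. Within quartiles of width the difference ran from -9.53 points (-10.8 to -8.06) among the narrowest to -46.8 points (-48.7 to -44.8) among the widest. The part that width had in the difference was not tested. The canonical motif TGACGTCA was present in 6 regions (0.246%), in 2.18% of acetylated promoter peaks and in 1.86% of all promoter Pol2 peaks. Distal peaks without H3K27ac held it in 0.253%, and the interval of that difference included 0 (-0.287 to 0.308 points). The 6 regions, at Vgf, Gm23991, Zbtb4, Nup88, Prcd and Gabbr1, had no V5 peak. Motifs of the form TGANNTCA, counted after the values had been seen, were present in 12.8% of the regions (11.6 to 14.2), in 7.22% of acetylated peaks and in 8.15% of all promoter Pol2 peaks, and in 2 of the 13 regions with V5. These motifs were not counted in distal peaks.

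Among the 13 regions with V5, that over Cbwd1, which encodes a CobW domain protein, stood apart. Its V5 score of 1841 was the highest of the 13, and its Pol2 score was 729. The other V5 scores ran from 76 to 363. Gm27747 had a V5 score of 363, Il1rl1, which encodes a cytokine receptor of the interleukin 1 receptor family, 241, Gm5544 218, and Col16a1, a collagen gene, 185, with Pol2 scores of 54, 71, 47 and 107. Only the regions at Cbwd1, Il1rl1 and 1700010I14Rik contained a TSS. The other 10 lay beside one, for example at Tle3, Hsf2 and Sptbn1.

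**Figure D4:**
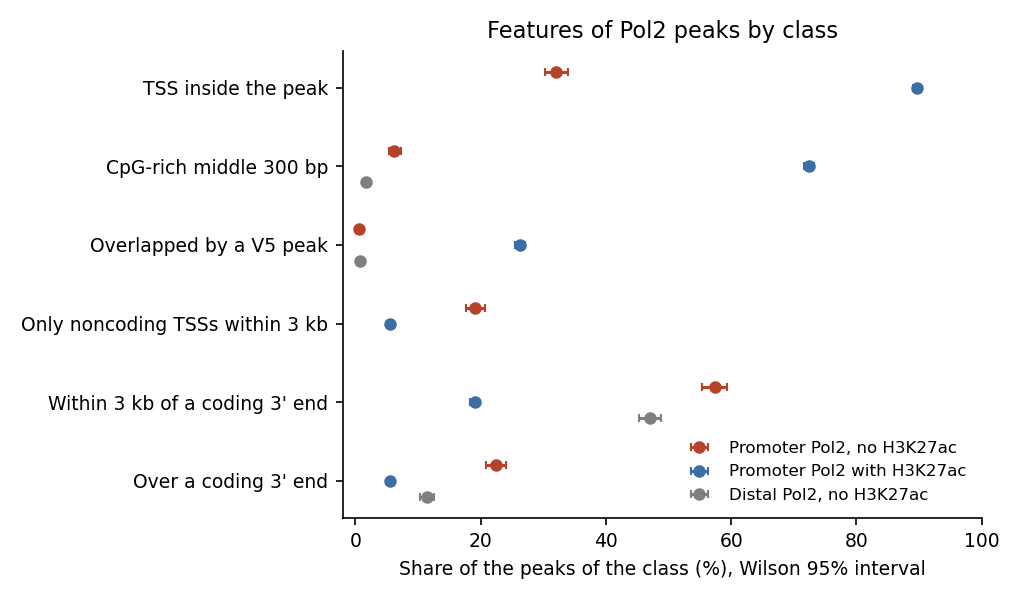
Points give the share of the peaks of each class (percent, x axis) with each feature (y axis), and bars are Wilson 95% intervals; features that the distal class cannot have by its definition are left out for it. The 2441 regions lie near the distal class for CpG content and V5 and far from the acetylated promoters for all 6 features.

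Since the regions had low scores, the comparisons with acetylated peaks were repeated within bands of score, a step added after the data had been seen. Within the lowest quartile (scores up to 147, 2093 regions and 1571 acetylated peaks), the differences were -17.9 points for V5, -20.7 for a TSS inside, -22.9 for a CpG-rich middle and 37.5 (34.6 to 40.3) for a coding 3′ end within 3 kb. Within the second quartile (328 regions) they were -14.7, -33.2, -44.0 and 54.6 points. All of these intervals excluded 0. The acetylated peaks of the lowest quartile were themselves unlike the stronger ones, as 48.7% contained a TSS and 26.3% had a CpG-rich middle.

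The width of the regions was less set apart. The median was 1110 bp (1060 to 1180), against 970 bp (960 to 980) for acetylated promoter peaks and 950 bp (930 to 980) for distal peaks, and a region was the wider in 54.7% of pairs with acetylated peaks (53.3 to 56.2), a direction that turned to 44.6% (43.3 to 45.8) when only the upper 50% of H3K27ac peaks by score counted as acetylation. A wider peak has more bases that could meet H3K27ac, so the rule itself bears on width.

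By TSS and base composition the 2441 regions fell into 3 groups. The first held 115 regions with a TSS inside and a CpG-rich middle. They were narrow, with a median width of 610 bp (580 to 640), a median score of 190 (157 to 234) and a median distance of 16761 bp (12801 to 25631) from H3K27ac. The second held 668 regions with a TSS inside and a CpG-poor middle, with a median width of 1725 bp (1550 to 1870), a median score of 75.5 (71 to 80) and a median distance of 6816 bp (6091 to 7761). The third held the 1658 regions without a TSS, with medians of 990 bp (950 to 1050), 54 (54 to 57) and 6651 bp (6121 to 7161). The coding gene overlapped had an acetylated Pol2 peak over a TSS for 20.9% (14.4 to 29.2) of the first group, 76.5% (73.1 to 79.6) of the second and 72.3% (70.1 to 74.4) of the third. A coding 3′ end lay within 3 kb for 32.2%, 57.3% and 59.1% of them.

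**Figure D5:**
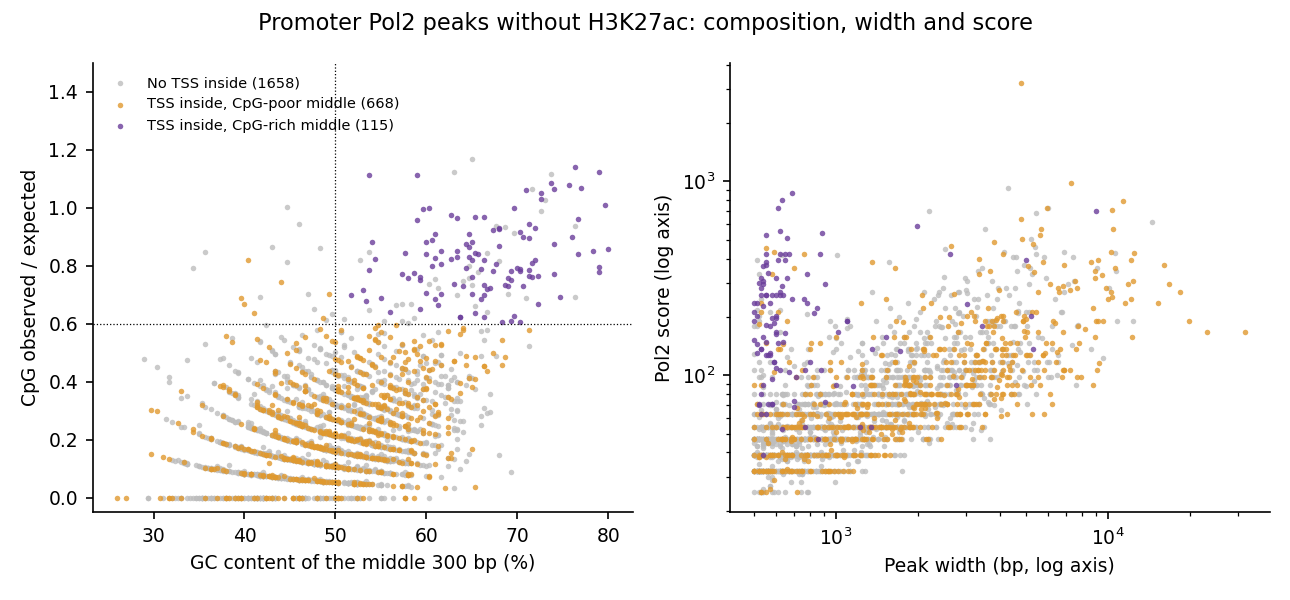
Each point is 1 of the 2441 regions. The left panel plots the ratio of observed to expected CpG (y axis) against GC content in percent (x axis) of the middle 300 bp, with dotted lines at the thresholds of 0.6 and 50%, and the right panel plots Pol2 score against width in bp on log axes; colors mark the 115 regions with a TSS and a CpG-rich middle, the 668 with a TSS and a CpG-poor middle and the 1658 without a TSS, and the first of these gather at narrow widths and higher scores.

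The 115 CpG-rich regions over a TSS were a small part of such promoters. Among all 8670 promoter Pol2 peaks with a TSS and a CpG-rich middle, 1.33% (1.11 to 1.59) had no H3K27ac, against 38.9% (37.6 to 40.1) of the other promoter Pol2 peaks. Compared with the 8555 acetylated peaks of the same kind, the 115 had lower scores (median 190 against 928, the higher of a pair in 9.15%, 7.34 to 10.96) and were narrower (610 against 950 bp, the wider in 21.9%, 16.3 to 27.5). V5 overlapped 1 of them, that of Cbwd1, against 26.8% of the acetylated peaks of the same kind, a difference of -26.0 points (-27.2 to -22.0). GGGCGG was present in 72.2% of the 115 and 76.7% of the acetylated peaks, a difference of -4.52 points whose interval included 0 (-13.4 to 2.91). CCGGAAG was less frequent, at 8.70% against 19.9% (-11.2 points, -15.2 to -4.62), and CCAAT more frequent, at 40.9% against 27.2% (13.6 points, 5.02 to 22.8). A TSS of a coding gene lay inside 104 of the 115.

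The strongest CpG-rich regions differed in their distance from acetylation. Plagl1, an imprinted gene for a zinc finger transcription factor, had a region of 690 bp with a score of 866 at chr10:13090551-13091240, which lay 81451 bp from the nearest H3K27ac peak. It covered a TSS within the gene, with its middle at 42.7% of the gene's length. Alg11, which encodes a mannosyltransferase of N-glycan assembly, had a region of 630 bp with a score of 797, 104721 bp from H3K27ac. The region of Cbwd1 was 610 bp wide and lay 37161 bp away. The next by score, at Tnfrsf1a, a gene for a receptor of tumor necrosis factor, was unlike these (score 701): it was 9020 bp wide, covered a coding 3′ end and lay 181 bp from H3K27ac. The regions at Mcts2 (585) and at the antisense gene A030001D20Rik (510) lay 1871 and 1341 bp from H3K27ac. Tnfrsf1a was named after its values had been seen. Pcx, which encodes pyruvate carboxylase, had a score of 557 and lay 11051 bp from H3K27ac. Zfp454, a zinc finger gene, had a score of 421 at 27781 bp, and the lincRNA 9430037G07Rik also had 421 at 50221 bp. The antisense gene Gm47061, whose region of 890 bp lay inside Tfap2a, a gene for a transcription factor of neural crest and melanocytes, scored 541 at 7711 bp.

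Several further genes of this CpG-rich group were picked out after their values had been seen. Mylk, which encodes myosin light chain kinase, scored 529 and lay 53721 bp from H3K27ac. Las1l, a gene of ribosome biogenesis, scored 395, Tigar, which encodes a fructose bisphosphatase, 294, and Cmtr2, which encodes an mRNA cap methyltransferase, 270. Vgf, which encodes a neuropeptide precursor, scored 318, and Slit2, which encodes a guidance ligand, 179 at 388761 bp from H3K27ac. Of the developmental transcription factor genes on the list described below, 2 had a region over a TSS, Sox17 (145) and Isl1 (80). The regions of Isl1 and Sox17 lay 713731 and 2461 bp from H3K27ac.

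The second group, over CpG-poor TSSs, was led by long peaks. Hnrnpa2b1, which encodes an RNA-binding protein of splicing, had a region of 11380 bp with a score of 790. Eif4g2, a translation factor gene, had 10310 bp and a score of 715, and Clk1, which encodes a kinase of splicing factors, 10420 bp and 571. Rack1, which encodes a protein of the small ribosomal subunit, had 5970 bp and 730, Prrc2a 4780 bp and 642, and Hnrnph1 5660 bp and 571. All 6 ran over the 3′ end of a coding gene, and each covered an annotated TSS as well, which was a start of the named gene. Cnih2, a cofactor gene of glutamate receptors, had 7310 bp and a score of 975, with no H3K27ac peak in its promoter windows. Gm42814 had the highest score of all regions, 3198, but its 4790 bp ended only 121 bp from an H3K27ac peak and 951 bp from an acetylated Pol2 peak.

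The widest regions were of the same kind. Fn1, which encodes fibronectin and is transcribed strongly by mesenchymal cells, held 2 of them, 31930 and 23020 bp wide, each with a score of 168. Uap1 (19760 bp) and Ugdh (16690 bp) were also among the widest, and both encode enzymes that make sugar nucleotides for the extracellular matrix. These 4 regions covered a TSS inside the gene, and each of the 3 genes had an acetylated Pol2 peak over another TSS.

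In the third group, without a TSS, the highest scores were those of Selenom (928) and Xbp1 (726). The region at Selenom, a selenoprotein gene, lay 1304 bp downstream of its TSS and covered the end of the neighboring gene Smtn, 51 bp from H3K27ac. That of Xbp1, which encodes a transcription factor of the unfolded protein response, began 1948 bp downstream of a TSS, covered a coding 3′ end and was 6000 bp wide. Among ribosomal protein genes, Rps19 had a region of 3540 bp with a score of 571 that covered a coding 3′ end, and Rpl28 one of 3600 bp with 258 that lay 95 bp from one. The region of Rpl11 (3010 bp, score 276) began 636 bp downstream of a TSS and lay near no coding 3′ end. The region named for Rpl23 (score 332) was 520 bp wide and consisted wholly of masked repeats.

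Counting genes rather than peaks gave few coding genes that lacked H3K27ac. Of 11738 protein-coding genes with a Pol2 peak in a promoter window, 295 (2.51%) had no H3K27ac peak in any of their windows, and 174 of these had a region over a TSS. A V5 peak lay in a promoter window of 2 of the 295 genes, Cbwd1 and Il1rl1, and of 3484 of the 11443 genes with both Pol2 and H3K27ac. By contrast, 1659 coding genes had at least 1 of the regions in a window, and 1373 of them had H3K27ac in a window too. Gene lists are described by their counts beside 2.51%, with no test.

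The lists fixed for coding genes lay on both sides of that share. None of the 80 cytosolic ribosomal protein genes with Pol2 lacked H3K27ac, although 50 of them had a region in a window. For replication-dependent histone genes the count was 1 of 66 (Hist3h2ba, score 145), for Zfp zinc finger genes 2 of 306 (Zfp454 and Zfp286), and for AP1 and immediate early genes 0 of 23. Above 2.51% were the developmental transcription factor genes, with 1 of 30 (3.33%, Isl1), the HOX genes, with 2 of 19 (10.5%, Hoxa6 and Hoxc8), and the fibrillar and other collagen genes, with 4 of 19 (21.1%, Col17a1, Col20a1, Col5a3 and Col7a1). The region over Col5a3 was 520 bp wide with a score of 184 at 53311 bp from H3K27ac, while that over Col20a1 was 12450 bp wide with a score of 426 and also covered TSSs of Arfgap1.

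Noncoding genes and pseudogenes were counted in the same way. A Pol2 peak without H3K27ac in any window was found for 160 of 502 microRNA genes with Pol2 (31.9%), 59 of 273 snoRNA and scaRNA genes (21.6%), 17 of 132 snRNA and 7SK genes (12.9%), 103 of 446 pseudogenes (23.1%) and 166 of 2105 long noncoding RNA genes (7.89%). No share over all noncoding genes was computed, and the 2.51% above covers coding genes only. It therefore cannot be said which of these lists differ from noncoding genes as a whole. Many small RNA genes lie inside or beside coding genes, and Pol2 of the host and of the small gene cannot be told apart in these lists. The region over Mir7-1 (score 474) ran past the end of Hnrnpk, whose transcript carries this microRNA, and that of Gm27597 (448) past the end of Rpl19. The region near Mirlet7d (408) lay over no coding gene. The snRNA genes Gm22973 and Gm26316 had scores of 382 and 356 at 19251 and 20151 bp from H3K27ac.

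Cell type markers were checked in the same way. Of 12 melanocyte and clear cell sarcoma genes, 3 had a Pol2 and 5 an H3K27ac promoter peak, and none of the 3 lacked H3K27ac. A region lay 1627 bp upstream of a TSS of Mc1r, the melanocortin receptor gene, with a score of 190. This region also covered a coding 3′ end and lay in Gm20388, a coding gene with an acetylated Pol2 peak over a TSS. Gm20388 also held regions named for other genes, such as Fanca and Zcchc14, so that peak need not lie at Mc1r. Pol2 lay at 9 of 16 macrophage, 6 of 13 endothelial and 6 of 12 fibroblast genes, with 0 lacking H3K27ac in each list. Of 30 skeletal muscle genes 7 had Pol2, and 3 of these had no H3K27ac (Actn2, Atp2a1 and Tnnt3). Actn2, which encodes sarcomeric actinin, had a region of 500 bp over its TSS with a score of 212, at 28371 bp from H3K27ac. The regions named for Atp2a1 (47) and Tnnt3 (117) lay upstream of a TSS, the latter at the end of the neighboring gene Lsp1. The part that muscle, immune or vessel cells in the tumors had in these counts was not tested.

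Some peaks lay close to the thresholds of the rule. Just inside, the region at Zfp296 touched an H3K27ac peak, and those at Hcls1 and Csnk1e lay 11 bp from one. Just outside, the peaks at Nup88, Tns2 and Kcnn3 shared 10 bases with H3K27ac. The number of regions at most 100 bp from H3K27ac was 10, and 12 promoter peaks shared fewer than 100 bases with it. At the other threshold, the farthest regions lay 2999, 2997 and 2994 bp from a TSS (1810043G02Rik, Hoxc8 and Gm24166), and the nearest peaks beyond it included those at Ulk3 and P3h4, both at 3004 bp.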

How the data were processed

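Tumor chromatin was immunoprecipitated for V5, phosphorylated RNAPOL2 or H3K27ac, with input as background. Per the submitters' processing notes and the methods of the study, the authors aligned reads with BWA (0.7.10-r789) to mm10, removed duplicates, called peaks with MACS2 (2.2.6), with its broad option for H3K27ac, and discarded denylisted regions. The authors deposited 1 peak list per antibody with a score for each peak. The scale of this score and how samples were pooled for the peak lists are not given in the sources used here. The methods describe averaging of replicates for the enrichment tracks. They also name more V5 and RNAPOL2 samples than the labels. The methods give 1 approximate depth for every library, and the lists hold no depth of single samples.

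Overlap meant at least 1 shared base. Distances run between nearest bases, so touching peaks are 1 bp apart. TSSs came from GENCODE vM21 (55413 genes, 141730 transcripts) on GRCm38, the assembly of mm10, which also gave the sequences. Shares have Wilson, their differences Newcombe, pair shares DeLong and medians order-statistic intervals (95%). No p-value was computed, since peaks are not replicates. In the main comparison of all 2441 regions, 15 differences from acetylated and 13 from distal peaks were computed, without adjustment. Of these, 15 and 8 excluded 0. Differences within bands of score, in strata of width and for the CpG-rich group are not in this count, and some of their intervals included 0. Functions were tested on simulated data. Plots were drawn with matplotlib 3.10.9, and tables handled with pandas 2.3.3, scipy 1.17.1 and numpy 2.4.6, under Python 3.11.15.

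The regions and gene lists were chosen with earlier results of these data known. A region was named by the TSS it contained, otherwise by the nearest. Named by rule were the 10 highest Pol2 scores, the 10 highest over a coding TSS at least 3 kb from H3K27ac, the 5 widest, the 5 highest V5 scores, up to 4 per gene list and 3 peaks on each side of each threshold. Some items that this rule names are not reported here. Alternatives changed the TSS window, the scores admitted and the overlap rule.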

Additional observations from a re-analysis of the deposited data

How the results depend on the processing

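No paired analysis was possible because each antibody had 1 peak list and no values per sample, and leaving out a replicate was not possible for the same reason. The lists hold no depth of single samples, and intervals cover counting error only. The number of regions was 2441, and it moved to 1379 with TSSs within 1 kb, to 152 with the upper 50% of Pol2 peaks by score and to 3689 when only the upper 50% of H3K27ac peaks counted. It ran from 1973 to 3212 under the other rules tried (TSSs within 5 kb, coding TSSs only, at least 1 kb from H3K27ac, middle base outside H3K27ac). The share of pairs in which a region was wider than an acetylated peak reversed to 44.6% with the upper 50% of H3K27ac peaks. Of the 61 results recomputed under these rules and, for V5 only, in strata of width, 57 kept their direction and side of the threshold. The other 4 are those named here. Over these alternatives and the bands of score, the differences from acetylated peaks ran from -46.8 to -9.53 points for V5. They ran from -61.9 to -20.7 for a TSS inside, from -67.5 to -22.9 for a CpG-rich middle and from 28.1 to 54.6 for a coding 3′ end. The higher score was the region's in 5.69% to 12.02% of pairs. Strata of width entered the range for V5 only. Within them a TSS inside reached -70.2 points and a CpG-rich middle -79.3 points, outside these ranges. Of 15 results within bands of score, chosen after seeing the data, 14 kept their side. The exception was noncoding TSSs above the median score, with 20 regions and a difference of 2.41 points (-1.72 to 21.03). The cause was not tested for any of these. Restriction to coding TSSs leaves no value for regions with noncoding TSSs only.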

Other observations

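Imprinted genes, of which only the copy from one parent is expressed, were looked at as a list after Plagl1 and Mest had been seen, so the list gets no test. Of 39 imprinted genes, 23 had a Pol2 peak in a promoter window, and 5 of these had no H3K27ac there (21.7%). They were Mest, Mirg, Plagl1, Rian and Rtl1. The list mixes coding and noncoding genes, for which the shares were 2.51% of all coding, 7.89% of long noncoding RNA and 31.9% of microRNA genes with Pol2. Mirg, Rian and Rtl1 are neighbors in a single imprinted cluster, so they are not independent. The CpG-rich regions at Mcts2, an imprinted gene that lies inside H13, and at Inpp5f scored 585 and 228, and their host genes had acetylated Pol2 peaks over other TSSs. The region at Mcts2 lay 1871 bp from H3K27ac, that at Inpp5f 9591 bp and that at Mest (score 319) 43521 bp.

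Some genes held many regions. Nedd4, which encodes a ubiquitin ligase, held 16 regions that covered 51060 bp in all, with scores up to 306. Gm20388 also held 16, which covered 33420 bp, with scores up to 356. It is an annotation that spans other genes. Its regions included those named for Zcchc14 (chr8:121595831-121605660), Fanca (chr8:123318411-123318910) and Mc1r (chr8:123401301-123405480). Sec31a held 14, Dgkg and Itpr2 13 each, Picalm 12 and Pde10a 11, and Stat3, Kmt2e, Sptan1, Zmiz1 and Rapgef4 held 7 each. The share of promoter Pol2 peaks without H3K27ac varied among chromosomes, from 9.24% on X (28 of 303, 6.47 to 13.0) to 20.8% on chromosome 7 (238 of 1143, 18.6 to 23.3), with 1 of 4 on Y.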
